A study of Drosophila melanogaster with 6 samples.

Results

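Nuclear ribosomal RNA (rRNA) genes and pseudogenes were taken as the genes whose symbol in the deposited comparison table contains rRNA and does not start with mt:, which gave 29 genes of the 17737 in the count files. By their symbols they fall into 3 genes for 18S rRNA, 2 for 28S, 4 for 5.8S, 3 for 2S, 4 models of the precursor and 13 pseudogenes, of which 9 are of 28S, 2 of 18S and 2 of 5.8S. No 5S gene is among them. In the Ensembl annotation of BDGP6.54, 17 of the 29 lie on the unplaced rDNA scaffold and 12 on chromosome X. RNA was sequenced from whole w1118 males, raised on cornmeal food until eclosion and then kept for 20 days at 25°C on glucose-supplemented holidic food (GSF, 50 g/L of added glucose) or on unmodified holidic food (HF), a chemically defined fly diet. Each diet had 3 libraries of 5 pooled flies, so RNA of all tissues is mixed in each library. The paper calls the libraries of a diet biological replicates, but the labels do not say whether they came from separate cultures, and p-values measure only the spread between these samples, part of which may be technical.

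Ribosomes are built on rRNA, which makes up most of the RNA in a cell. In flies, RNA polymerase I transcribes tandem repeats on the X and Y chromosomes into a precursor that is cut into 18S rRNA for the small subunit and 5.8S, 2S and 28S rRNA for the large subunit. The short 2S rRNA is a piece of what is a single 5.8S molecule in most animals. The 5S rRNA comes from a separate gene cluster and is made by RNA polymerase III. The repeats vary in number between flies, and many copies on the X carry insertions of the R1 and R2 elements in their 28S part. Sequencing libraries usually remove rRNA by selecting poly(A) tails or by depletion, and which of these was used here is not given in the sources used.

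The libraries held between 60378391 and 66493536 gene counts on GSF and between 51826530 and 60990342 on HF. The paper states that males were used, and male reproductive genes were present. Their summed level was 1096 to 1128 CPM (counts scaled by the total of a library) on GSF and 1059 to 1396 CPM on HF. The 8 female reproductive markers summed to 10.3 to 10.7 CPM on GSF and 12.2 to 13.3 CPM on HF. The 8 markers of other tissues (eye, muscle, gut, fat body and nervous system among them) summed to 3070 to 3430 CPM on GSF. On HF they summed to 3766 to 4320 CPM. The sums of the female markers and of these were lower in every GSF library. Most of the latter sum was ninaE of the eye, after normalization at 2130 to 2430 CPM on GSF and 2485 to 2711 CPM on HF. Not all of these markers were lower. The nervous system gene elav was higher in every GSF library (log2 fold change 0.20), and Act88F, TpnC4 and Gnmt overlapped between the diets. The part of the markers in the rRNA values was not tested. Of the 17 tested markers edgeR called 0, against 2.0% of all genes called higher and 3.14% called lower. At an unadjusted p under 0.05 there were 7, against 19.7% of all genes in either direction. With the replicate number as a block 5 (SP, Acp53Ea, Yp3, Lsp2 and Npc2f) were called lower on GSF, against 6.52% of all genes. No pair of libraries of the same diet agreed within sampling noise.

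The rRNA models in the annotation lie inside each other, and this decides how their counts can be read. The model pre-rRNA:CR45847 (rDNA scaffold, 66807 to 74924, plus strand, 8118 bp) holds a complete unit, with 18SrRNA:CR45841, 5.8SrRNA:CR45842, 2SrRNA:CR45843 and 28SrRNA:CR45844 inside it. In pre-rRNA:CR45845 (42623 to 49485) the 28S gene is 2715 bp long, against 3970 bp in the complete unit, and pre-rRNA:CR45846 (55104 to 59294) ends before any 28S gene. The fourth model, pre-rRNA:CR45856 (chromosome X, 23278007 to 23283731, minus strand), holds a 5.8S gene between an 18S and a 28S pseudogene. In each of the 6 libraries the counts of a precursor model equalled the summed counts of the genes inside it, to within -0.0413% to 0.0568% of the precursor's counts. All counts are whole numbers, so a read on a mature gene was counted in full on its precursor too, and sums over the 29 genes count such reads 2 times or more. Spacer takes up 2000 bp of the complete unit, or 24.6% of its length, and the counts of this model minus those of its parts lay between -985 and 210. The counts of a precursor model thus gave almost nothing beyond its mature genes, and they are not a measure of unprocessed transcript.

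**Figure D1:**
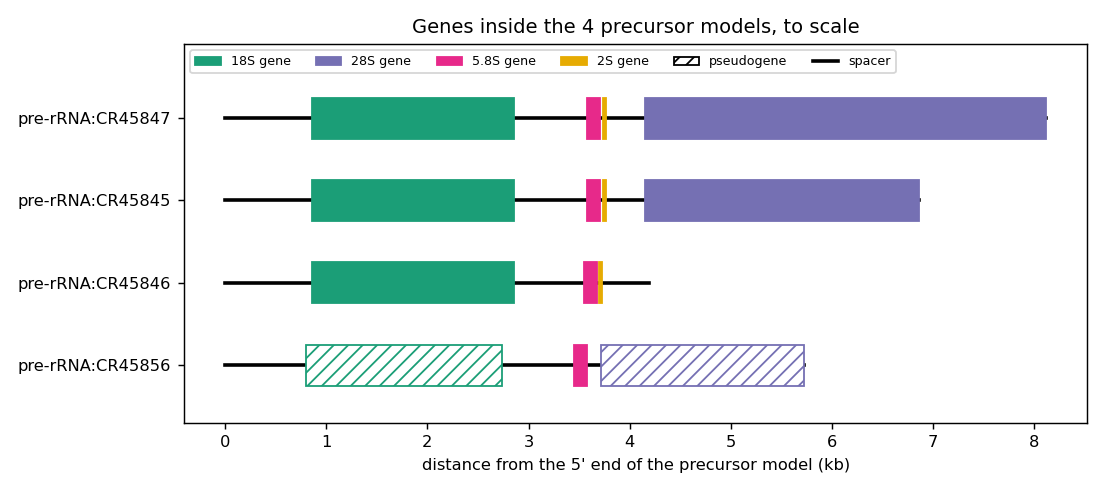
The 4 precursor models drawn to scale from their 5′ end, in kb, with filled boxes for annotated genes, hatched boxes for pseudogenes and a line for spacer. The model pre-rRNA:CR45847 is 8118 bp long and complete, pre-rRNA:CR45845 has a shortened 28S gene, pre-rRNA:CR45846 has none, and pre-rRNA:CR45856 holds 2 pseudogenes around a 5.8S gene.

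Levels per length separated 5.8S from 18S and 28S by more than they separated the diets. They are given as raw counts per kb, not scaled for depth, so the deeper sequencing of most GSF libraries is part of their gap between the diets. The 3 genes for 18S had between 536117 and 669699 counts per kb on GSF and between 363727 and 491833 on HF. The 2 genes for 28S had between 331329 and 397590 counts per kb on GSF and between 258529 and 320994 on HF. The 5.8S genes on the rDNA scaffold lay an order of magnitude lower, between 19220 and 37545 counts per kb on GSF and between 19301 and 35211 on HF. Copies of 18S, 28S and 5.8S were close to each other, while those of 2S were not. Within a library, the highest of the 3 copies for 18S had 1.07 to 1.08 times the counts of the lowest, and the 5.8S copies on the scaffold differed by 1.05 to 1.06 times. Per kb, both 28S copies were within 1.04 to 1.06 times of each other. Sequence identity between the copies was not computed here. If reads fit several copies, whether they were split among the copies or counted on each cannot be told apart, so the copies are not taken as separate measurements.

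**Figure D2:**
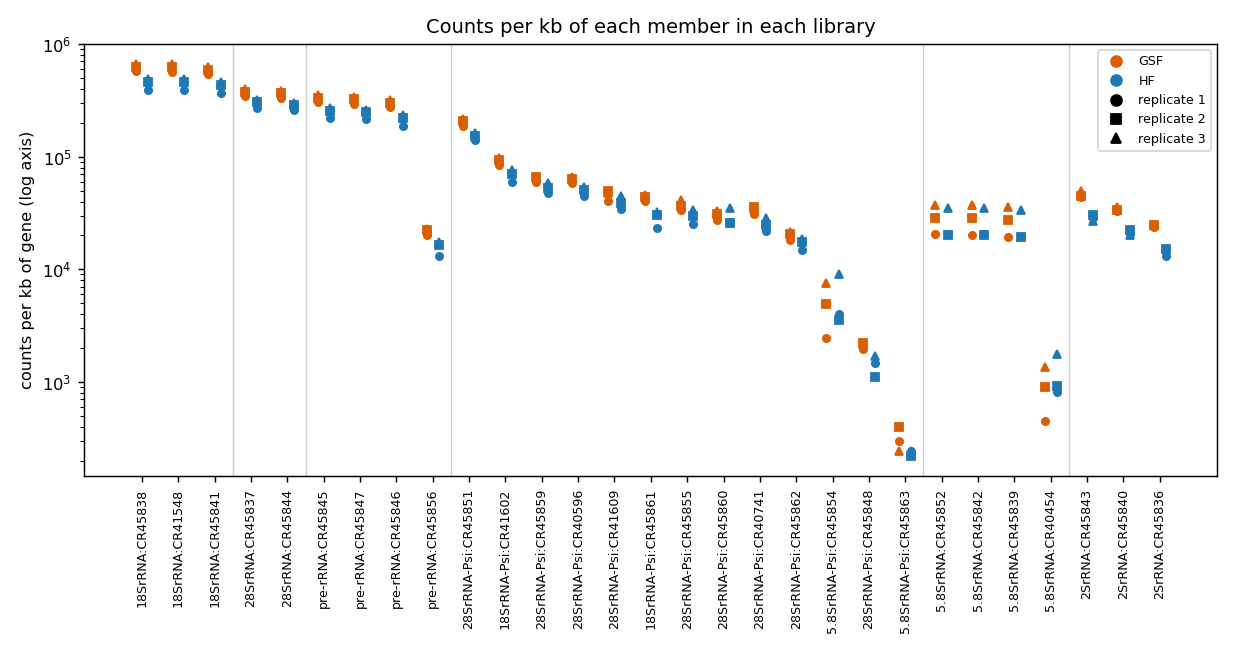
Raw counts per kb of each of the 29 genes on a log axis, with GSF libraries (orange, left) beside HF libraries (blue, right) and a marker shape for each replicate number. The 18S, 28S and scaffold precursor models lie highest, and pseudogenes spread over more than 2 orders of magnitude below them.

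A larger part of the counts fell on rRNA genes in flies raised on GSF. The 29 genes together took 20.6%, 21.1% and 24.5% of all gene counts in the GSF libraries, against 17.9%, 18.5% and 18.6% in the HF libraries, counting a read as often as it was deposited. The means were 22.1 ± 2.13% on GSF and 18.3 ± 0.384% on HF (SD, n = 3 each), a difference of 3.77 percentage points with no overlap between the diets. GSF replicate 3 was the highest library. The complete unit alone, as a share of itself and all genes outside the 29, gave 4.64%, 4.76% and 5.74% on GSF, against 3.96%, 4.11% and 4.09% on HF. In whole flies, more cells of a type and more RNA per cell cannot be told apart, and a share can also differ through the other RNAs or through how much rRNA a library preparation left. The part of the last in these values was not tested.

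By class, 18S took 5.41%, 5.52% and 6.48% of the counts on GSF, against 4.42%, 4.71% and 4.71% on HF. The share of 28S was 3.65%, 3.73% and 4.30% on GSF, against 3.40%, 3.41% and 3.39% on HF. Both classes were higher in every GSF library, and 28S by the smaller margin. Precursor models took 9.26%, 9.46% and 11.0% on GSF, against 7.98%, 8.30% and 8.29% on HF, and pseudogenes 2.30%, 2.38% and 2.70% on GSF, against 2.07%, 2.10% and 2.13% on HF. The 2S genes took 0.00487%, 0.00468% and 0.00547% on GSF, against 0.00360%, 0.00353% and 0.00308% on HF. Only 5.8S overlapped between the diets, with 0.0119%, 0.0158% and 0.0229% on GSF, against 0.0147%, 0.0130% and 0.0213% on HF. Sums over the genes were given no test. Without GSF replicate 3 the difference in the 28S share was 0.283 percentage points, against 0.489 with it, that of all 29 genes was 2.55, and that of 5.8S was -0.00243, against 0.000561 with all libraries.

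**Figure D3:**
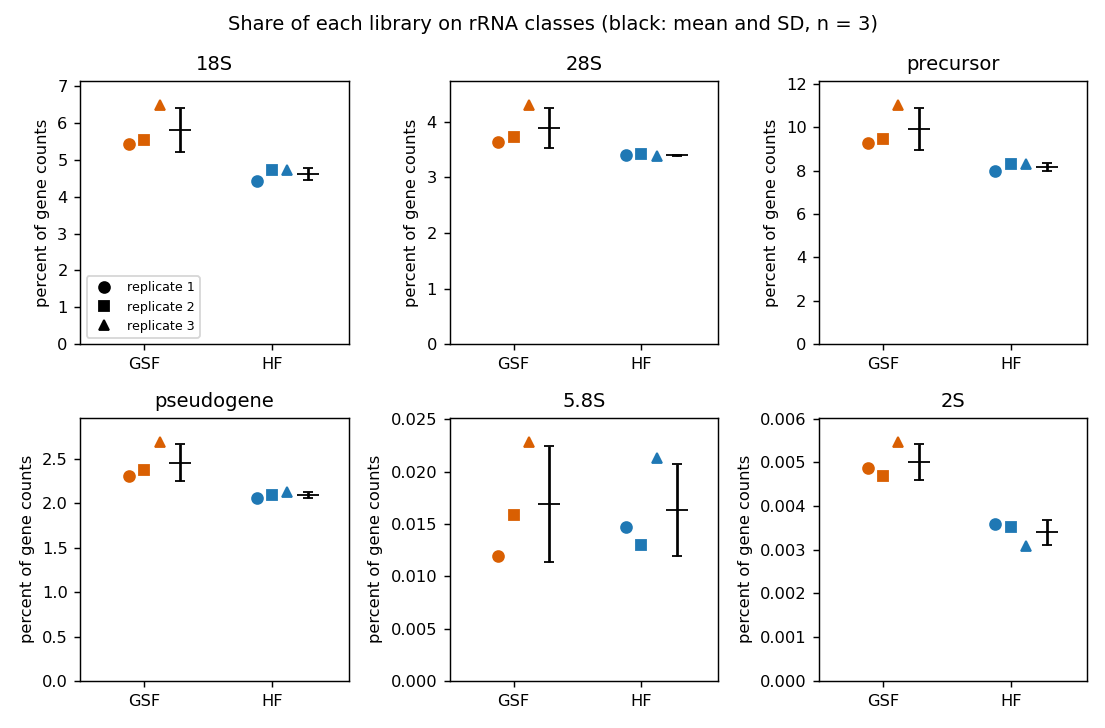
Percent of each library's gene counts on 6 classes of rRNA gene, with GSF left of HF, a marker shape for each replicate number, and the mean and SD (n = 3) in black. The diets do not overlap in any class but 5.8S, where replicate 3 is the highest library on both diets.

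Across single genes, GSF was set against HF by the quasi-likelihood test of edgeR over 13373 genes, 28 of the 29 rRNA genes among them, and a gene was called at a p under 0.01 and a Benjamini-Hochberg FDR under 0.05. The gene left out, 5.8SrRNA-Psi:CR45863, had 27 to 49 counts per library and did not reach 1 CPM in 3 libraries. The test called 3 of the 28 genes higher on GSF, which are the 3 genes for 2S, and called 0 lower. Over all genes tested the background was 2.0% called higher and 3.14% called lower. At an unadjusted p under 0.05, 15 of the 28 were higher, against 9.77% of all genes, and 0 were lower, against 9.90%. In 18 of the 28 the lowest GSF library was above the highest HF library, against 12.3% of all genes, and in 0 was the highest GSF library below the lowest HF library, against 12.9%. The log2 fold change was above 0 in 25 of the 28, against 52.3% of all genes, and its median was 0.25, against 0.01 over all genes tested. Without GSF replicate 3 the median was 0.16. Since precursor models hold the reads of the genes inside them, and copies may share reads, the 28 do not count as 28 separate observations. The 14 genes with no overlap among the 17 on the rDNA scaffold compare with 4 of the 11 tested on the X, and the medians were 0.27 on the scaffold and 0.12 on the X. All tested genes for 18S, 28S and 2S lie on the scaffold, so for them location and class cannot be told apart. Pseudogenes of 28S, 5.8S genes and precursor models lie on both. The pseudogenes of 28S had log2 fold changes of 0.17 to 0.41 on the scaffold and -0.08 to 0.28 on the X. The 5.8S genes were at 0.05 on the scaffold and -0.50 on the X. Precursor models were at 0.25 to 0.32 on the scaffold and 0.32 on the X. A difference by location within a class was not tested.

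When the replicate number was added as a block, the test called 6 of the 28 higher, against a background of 6.80% called higher, and 0 lower, against 6.52%. The 3 genes added were pre-rRNA:CR45856, 18SrRNA-Psi:CR45861 and 28SrRNA-Psi:CR40741, all on the X. DESeq2 called 10 higher, against a background of 4.52%, and 0 lower, against 6.16%. Among GSF libraries, replicate 3 was the highest for all 28 genes after normalization. Leaving out 1 library at a time gave 0 to 2 calls, with 0 without GSF replicate 1 and without HF replicate 1, 1 without GSF replicate 2, GSF replicate 3 or HF replicate 3, and 2 without HF replicate 2.

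**Figure D4:**
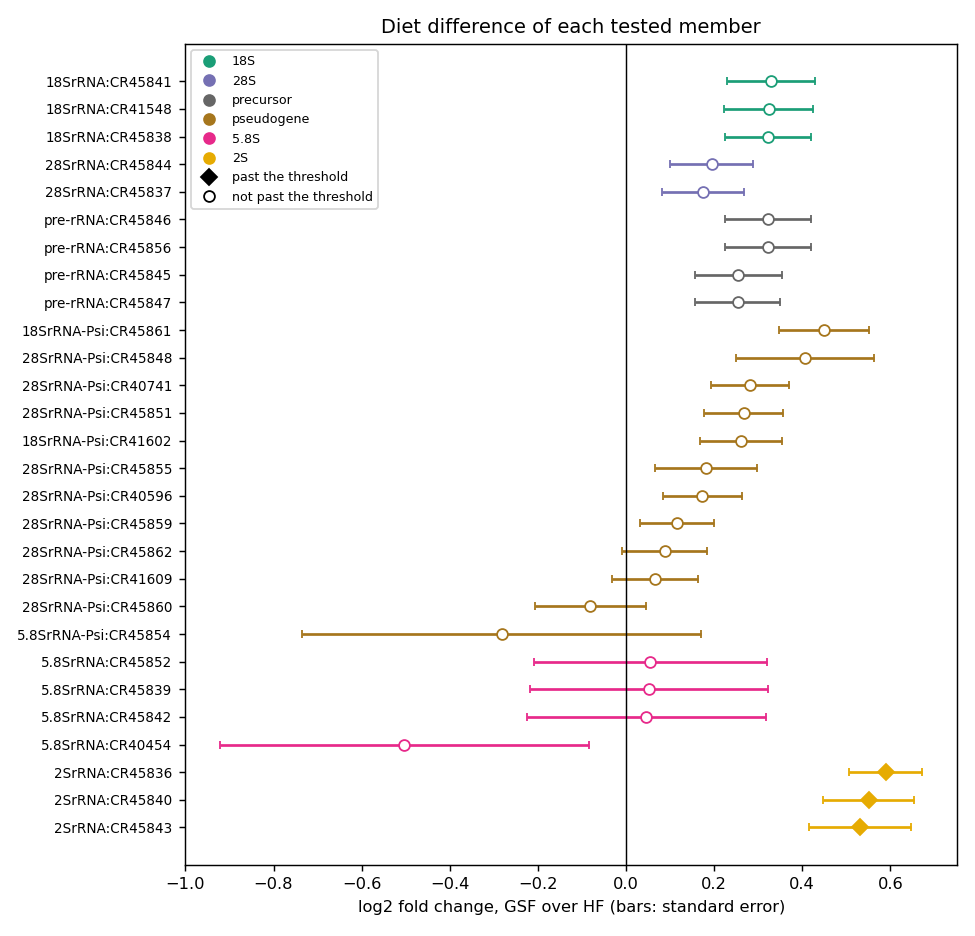
The log2 fold change, GSF over HF, of the 28 tested genes, ordered by class, with bars for the standard error, filled diamonds for genes past the threshold and open circles for the others. The 3 genes for 2S lie between 0.53 and 0.59, those for 18S between 0.32 and 0.33, those for 28S between 0.17 and 0.19, and the 5.8S genes of the scaffold at 0.05.

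The 2S rRNA pairs with 5.8S and 28S rRNA in the large subunit, and its 3 annotated genes passed the threshold as higher on GSF. Their counts are not taken as the level of mature 2S rRNA, because of the read length given below. The gene 2SrRNA:CR45836 had 708, 738 and 738 counts on GSF, against 392, 457 and 455 on HF. After normalization it averaged 11.6 ± 0.781 CPM on GSF and 7.68 ± 0.193 CPM on HF (SD, n = 3 each), a log2 fold change of 0.59 with a standard error of 0.084 and an FDR of 0.0124 by edgeR's quasi-likelihood test. All GSF libraries lay within a narrow band above all HF libraries. The gene 2SrRNA:CR45840 had 994, 1017 and 1080 counts on GSF, against 615, 665 and 611 on HF (log2 fold change 0.55, standard error 0.103, FDR 0.0261 by edgeR). The gene of the complete unit, 2SrRNA:CR45843, had 1314, 1355 and 1485 counts on GSF, against 858, 906 and 811 on HF (log2 fold change 0.53, standard error 0.116, FDR 0.0445 by edgeR). The same order of the copies, with 2SrRNA:CR45843 highest and 2SrRNA:CR45836 lowest, was seen in each of the 6 libraries, where the highest had 1.78 to 2.19 times the counts of the lowest. Without GSF replicate 1 the 3 genes had FDRs of 0.0538 to 0.0976, and without HF replicate 1 of 0.0567 to 0.0874. Without GSF replicate 2, GSF replicate 3 or HF replicate 3 only 2SrRNA:CR45836 remained past the threshold, with FDRs of 0.0354, 0.0420 and 0.0256, and without HF replicate 2 it and 2SrRNA:CR45840 remained, with FDRs of 0.0267 and 0.0492. The log2 fold changes stayed between 0.44 and 0.63 over these 6 fits.

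The 2S gene is annotated at 30 bp, in the complete unit at 70540 to 70569 of the rDNA scaffold, 28 bp after the end of 5.8S and 385 bp before 28S. The authors discarded reads below a minimum length that exceeds these 30 bp, so a read that aligned in full and was counted on 2S also covered bases beside the gene. A 2S rRNA cut to these 30 bp is shorter than that minimum, so the counts do not give its level in ribosomes. Counts on so short a gene depend on read length too, and its counts per kb, between 23600 and 49500 on GSF and between 13067 and 30200 on HF, are not set against those of the longer genes.

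The 18S rRNA forms the core of the small subunit, where the mRNA is decoded. The gene of the complete unit, 18SrRNA:CR45841, had 16880, 17476 and 21047 CPM on GSF, against 14106, 14897 and 15108 CPM on HF. The diets did not overlap, and GSF replicate 3 was set apart from the other two GSF libraries. Its log2 fold change was 0.33 with a standard error of 0.099 and an FDR of 0.114 by edgeR, and it was not called. For 18SrRNA:CR45838 and 18SrRNA:CR41548 the log2 fold changes were 0.32 and 0.32, with FDRs of 0.114 and 0.124. With the replicate block the FDRs of the 3 genes for 18S were 0.0512 to 0.0567, and DESeq2 called all 3.

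The 28S rRNA forms the peptidyl transferase centre of the large subunit. The gene of the complete unit, 28SrRNA:CR45844, had 20759, 21700 and 25643 CPM on GSF, against 19951, 19711 and 19832 CPM on HF. The HF libraries were close to each other, and GSF replicate 1 lay just above them. The log2 fold change was 0.19 with a standard error of 0.094 and an FDR of 0.313 by edgeR, and it was 0.11 without GSF replicate 3. The shortened copy 28SrRNA:CR45837 had 14855, 15378 and 18219 CPM on GSF, against 14311, 14209 and 14414 CPM on HF, with a log2 fold change of 0.17 and an FDR of 0.363, and 0.09 without GSF replicate 3.

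The 5.8S rRNA pairs with 28S rRNA, and its diet difference lay within the spread between libraries. The gene of the complete unit, 5.8SrRNA:CR45842, had 38.8, 52.8 and 77.9 CPM on GSF, against 49.6, 42.9 and 71.6 CPM on HF. The diets overlapped and replicate 3 was the highest on each. The log2 fold change was 0.05 with a standard error of 0.272 and an FDR of 0.967 by edgeR, and those of 5.8SrRNA:CR45852 and 5.8SrRNA:CR45839 were 0.05 and 0.05. All 5 tested genes and pseudogenes of 5.8S had replicate 3 highest on both diets. The gene on the X, 5.8SrRNA:CR40454, had 56, 111 and 168 counts on GSF, against 101, 114 and 220 on HF, with a log2 fold change of -0.50, a standard error of 0.418 and an FDR of 0.603. Its log2 fold change was -0.97 without GSF replicate 3, -0.18 without GSF replicate 1 and -0.14 without HF replicate 3. With the replicate block the standard error of 5.8SrRNA:CR45842 was 0.120, at a log2 fold change of 0.02 and an FDR of 0.925. That of 5.8SrRNA:CR40454 was 0.198 with the block, at a log2 fold change of -0.54 and an FDR of 0.135.

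The 4 precursor models followed the genes inside them. The complete model pre-rRNA:CR45847 had 37683, 39252 and 46790 CPM on GSF, against 34117, 34664 and 35021 CPM on HF (log2 fold change 0.25, standard error 0.097, FDR 0.202 by edgeR). For pre-rRNA:CR45845, with the shortened 28S gene, the log2 fold change was 0.25 (FDR 0.205), and without GSF replicate 3 both models were at 0.16. The model with no 28S gene, pre-rRNA:CR45846, lay nearer to 18S, at 0.32 (FDR 0.116). On the X, pre-rRNA:CR45856 had 1805, 1896 and 2205 CPM on GSF, against 1449, 1620 and 1657 CPM on HF. Its log2 fold change of 0.32 had a standard error of 0.098 and an FDR of 0.116, and with the replicate block the standard error was 0.065 and the FDR 0.0288.

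The 13 pseudogenes are partial or altered copies that the annotation does not take to give a working rRNA. Their counts per kb were set against the full copy of the complete unit. The highest, 28SrRNA-Psi:CR45851 on the rDNA scaffold (2800 bp), had 56.6% of the level of 28SrRNA:CR45844 on GSF and 53.8% on HF. The longest, 28SrRNA-Psi:CR40596 (6005 bp, 151% of the length of 28S), had 17.3% on GSF and 17.6% on HF, and 18SrRNA-Psi:CR41602 on the X (1975 bp) had 15.7% of the level of 18S on GSF and 16.5% on HF. The lowest, 28SrRNA-Psi:CR45848, had 0.589% on GSF and 0.508% on HF. A pseudogene close in sequence to a working copy could take reads from it, so these levels are uncertain as to their source.

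Of the 12 pseudogenes tested, edgeR called 0, against 2.0% of all genes called higher and 3.14% called lower. DESeq2 called 2 higher, against 4.52% of all genes. By edgeR, 5 had an unadjusted p under 0.05, against 19.7% of all genes in either direction. A log2 fold change above 0 was seen in 10, against 52.3% of all genes. The 3 with the most counts had log2 fold changes of 0.27 for 28SrRNA-Psi:CR45851 (FDR 0.150 by edgeR), 0.17 for 28SrRNA-Psi:CR40596 (FDR 0.354) and 0.26 for 18SrRNA-Psi:CR41602 (FDR 0.172). Without GSF replicate 3, 28SrRNA-Psi:CR40596 was at 0.09. In 28SrRNA-Psi:CR45851 the libraries had 8295, 8730 and 10140 CPM on GSF, against 7643, 7438 and 7497 CPM on HF, with no overlap. In both pseudogenes of 18S and 4 of the 9 of 28S every GSF library was above every HF library, against 12.3% of all genes. The median log2 fold change was 0.36 for the tested pseudogenes of 18S and 0.17 for those of 28S. Singled out after its values were seen, 18SrRNA-Psi:CR45861 had 1228, 1282 and 1477 CPM on GSF, against 867, 1011 and 1041 CPM on HF. Its log2 fold change was 0.45 with a standard error of 0.103, at a p of 0.00259 and an FDR of 0.0502 by edgeR, and with the replicate block the FDR was 0.0102. For 28SrRNA-Psi:CR40741 the log2 fold change was 0.28, with an FDR of 0.127, and 0.0307 with the block. The pair below 0 were 28SrRNA-Psi:CR45860 at -0.08 and 5.8SrRNA-Psi:CR45854 at -0.28.

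Within one unit, the ratio of 2 genes does not depend on library size or on the total counts of the other genes. It can depend on reads that also fit other copies or pseudogenes, and their part was not tested. In the complete unit, 18S counts over 28S counts were 0.813, 0.805 and 0.821 on GSF, against 0.707, 0.756 and 0.762 on HF. The GSF libraries were close together and above all HF libraries, but the exact two-sided permutation test of 3 against 3 libraries cannot go below a p of 0.1, which it reached here, and the adjusted p was 0.22 over the 11 ratios computed. The same ratio in the unit of pre-rRNA:CR45845 was 1.20, 1.22 and 1.24 on GSF, against 1.06, 1.12 and 1.12 on HF, which may rest in part on the same reads. Between the X pseudogenes 18SrRNA-Psi:CR45861 and 28SrRNA-Psi:CR45862 it was 2.14, 2.10 and 2.04 on GSF, against 1.50, 1.66 and 1.70 on HF. The ratio of 2S to 28S in the complete unit was 0.000999, 0.000934 and 0.000977 on GSF, against 0.000836, 0.000794 and 0.000676 on HF. The ratio of 2S to 5.8S in the same unit overlapped, with 0.535, 0.384 and 0.322 on GSF, against 0.336, 0.365 and 0.187 on HF, at an exact permutation p of 0.3. Both the X ratio and the ratio of 2S to 28S reached the smallest p of 0.1 in the exact permutation test. The ratio of 5.8S to 28S overlapped, with 0.00187, 0.00243 and 0.00304 on GSF, against 0.00249, 0.00218 and 0.00361 on HF, at an exact permutation p of 0.6.

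**Figure D5:**
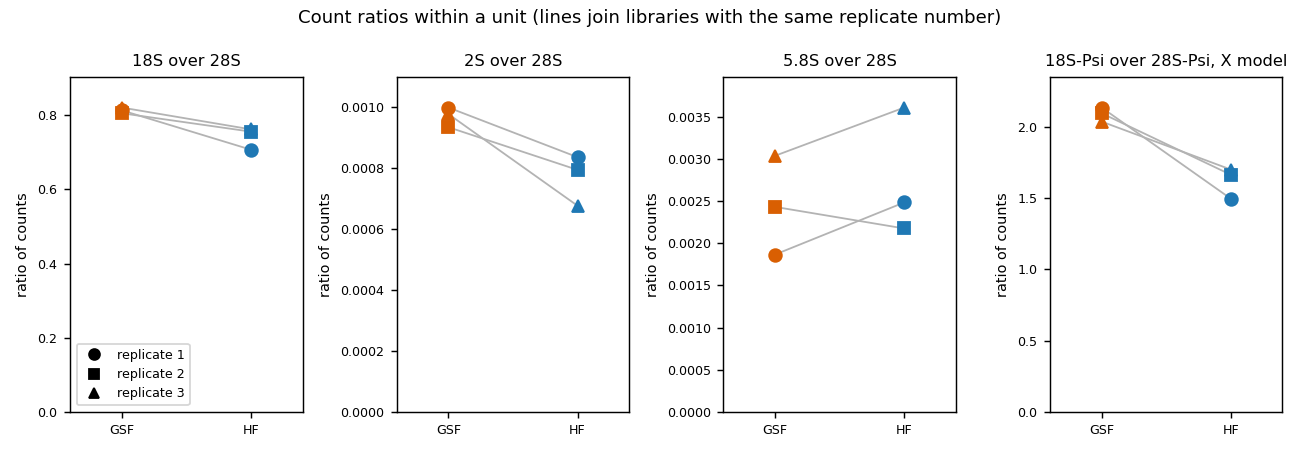
Ratios of counts between genes of one unit, with GSF left of HF, axes from 0, a marker shape for each replicate number and lines joining libraries of the same number. The first 3 panels are the complete unit and the fourth the X pseudogenes. The diets do not overlap for 18S over 28S, for 2S over 28S or for the X pseudogenes, and they overlap for 5.8S over 28S.

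The 5S rRNA was almost absent from the counts. The files hold 96 genes and 4 pseudogenes for 5S outside the comparison table, of which 38 had any count, and together they had 70, 53 and 4 counts on GSF, against 20, 12 and 5 on HF. No single 5S gene passed 0.356 CPM in any library, so a diet difference could not be assessed from these counts. Why so few reads were counted on 5S was not tested. The next gene in level outside the table was 28SrRNA-Psi:CR45853, at up to 0.246 CPM. Both mitochondrial rRNA genes, mt:lrRNA and mt:srRNA, are listed at 0 in all 6 libraries, as are all 38 genes of the mitochondrial genome, among them genes that every cell uses.

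Genes that make and process rRNA were given from lists written from general knowledge. RNA polymerase III makes 5S rRNA and tRNA, and Maf1, which represses it, was the one gene of the 4 lists that was called. Maf1 had 48.8, 49.0 and 45.1 CPM on GSF, against 33.96, 34.8 and 35.1 CPM on HF, with no overlap. Its log2 fold change was 0.46 with a standard error of 0.065 and an FDR of 0.0124 by edgeR. Its FDR was 0.0563 without GSF replicate 1 and 0.0581 without HF replicate 1, at log2 fold changes of 0.44 and 0.45. Of the 14 genes tested for RNA polymerase III, 1 was called higher and 0 lower, and the median log2 fold change was 0.02. Of the 11 tested for RNA polymerase I, 0 were called, and the median was -0.01. Of the 21 for rRNA modification and processing 0 were called, with a median of -0.04, and 1 was called lower with the replicate block. That gene was Non1, a GTPase of large subunit assembly, with 344, 386 and 344 CPM on GSF, against 417, 462 and 392 CPM on HF (log2 fold change -0.24, FDR 0.175 by edgeR, and 0.0403 with the block). Of the 15 exosome and exonuclease genes 0 were called, with a median of 0.01. At an unadjusted p under 0.05 in either direction, 1, 2, 1 and 0 genes of these lists passed for RNA polymerase I, RNA polymerase III, processing and the exosome in turn, against 19.7% of all genes tested. DESeq2 called Maf1 higher and 0 other genes of the 4 lists.

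Other RNAs without a poly(A) tail were set beside the rRNA, since their level can move with how a library is prepared. Spliceosomal and 7SK RNAs summed to 27.9 to 34.7 CPM on GSF and 29.2 to 35.1 CPM on HF. The 7SL, RNase P and RNase MRP RNAs summed to 45.6 to 72.3 CPM on GSF and 51.4 to 58.6 CPM on HF. Small nucleolar and Cajal body RNAs, which guide the modification of rRNA and other RNAs, summed to 217 to 232 CPM on GSF and 189 to 220 CPM on HF. The sums of these 3 sets overlapped between the diets. Of their 26 tested genes, edgeR and DESeq2 called 0. By edgeR, 1 had an unadjusted p under 0.05, against 19.7% of all genes in either direction. Replication-dependent histone genes, whose mRNAs end without a tail, summed to 232 to 331 CPM on GSF and 240 to 305 CPM on HF. Of the 45 tested, 33 had a log2 fold change above 0, against 52.3% of all genes. Their median was 0.27, close to that of the rRNA genes, against 0.01 over all genes tested, while their sums overlapped between the diets. Copies of the same histone gene may share reads, so the 45 do not count as 45 separate observations. edgeR called 0 histone genes, 9 of the 45 had an unadjusted p under 0.05, against 19.7% of all genes, 4 were called higher with the replicate block, against 6.80%, and 3 with DESeq2, against 4.52%. The part of library preparation in the rRNA values was not tested.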

How the data were processed

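The authors trimmed paired-end reads with Trimmomatic, aligned them with HISAT2 (version 2.1.0), converted them with SAMtools (version 1.8) and counted them with Rsubread. How reads on several places, overlapping genes or either strand were counted is not given in the sources used here. The deposited files hold the authors' counts per gene for 6 libraries, unnormalized. From the deposited comparison table only the symbols were used, and 4 columns of the authors' results were not. Coordinates and lengths are from Ensembl BDGP6.54. The paper names the build only as bdgp6, so lengths may differ slightly.

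In R 4.3.3, edgeR 4.0.16 kept genes that reached 1 CPM in 3 or more libraries and compared GSF with HF by TMM and its quasi-likelihood test (two-sided, Benjamini-Hochberg over 13373 genes, checked on simulated counts). DESeq2 1.42.0, other scalings, filters and tests and each library left out were alternatives. CPM are normalized by TMM, except for sums and for genes not tested. A read depth of 3 counts corresponds to 0.0451 to 0.0579 CPM. Libraries with the same replicate number deviated together across genes (r of 0.188, 0.247 and 0.476, against -0.309 to 0.115 for different numbers), so the numbers were taken to pair libraries, on the counts alone. Deviations were taken from the mean of the 3 libraries of a diet, so these r values are not independent of each other. A fit with the number as a block is printed where it changed a call of a gene or list given here.

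Named were every called gene, the 3 genes per class with the most counts, every precursor, the mitochondrial rRNAs and called genes of the lists. Members and lists were chosen with earlier results of these data known.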

Additional observations from a re-analysis of the deposited data

How the results depend on the processing

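The count of rRNA genes called higher on GSF was 3, and 10 with DESeq2 (which called 604 genes higher in all, against 267), 6 with the replicate block (the fit that uses the pairing), 15 at an unadjusted p under 0.05, 4 with library size alone or edgeR's likelihood ratio test, and 3 under other scalings and filters. Leaving out 1 library at a time gave 0 to 2, when calls over all genes also fell to between 48 and 224 higher, against 267. The count of genes called lower was 0 in every fit run. With the rRNA genes left out of the denominator, with or without the mitochondrial genome, the difference in share was 5.99 percentage points for all 29 genes, 1.82 for 18S, 0.841 for 28S, 0.00228 for 2S, 2.73 for precursor models and 0.592 for pseudogenes. Without precursor models the difference of the whole set was 2.05, and for one complete unit, chosen after seeing the data, 0.993. These follow from the smaller denominator or set. Paired by replicate number, the differences for all 29 genes were 2.76, 2.56 and 5.99 percentage points for numbers 1, 2 and 3, with a mean of 3.77. Leaving out 1 library gave differences of 2.55 to 4.50 for all genes, 0.856 to 1.39 for 18S, 0.283 to 0.612 for 28S, -0.00243 to 0.00305 for 5.8S, 0.00137 to 0.00177 for 2S, 1.17 to 2.06 for precursor models and 0.240 to 0.436 for pseudogenes. Log2 fold changes turned sign only when a library was left out: 5.8SrRNA:CR45852 gave -0.23 to 0.30, 5.8SrRNA:CR45842 -0.24 to 0.29, 5.8SrRNA:CR45839 -0.24 to 0.30, 5.8SrRNA-Psi:CR45854 -0.77 to 0.19, 28SrRNA-Psi:CR41609 -0.0037 to 0.15, 28SrRNA-Psi:CR45862 -0.0050 to 0.16 and 28SrRNA-Psi:CR45860 -0.18 to 0.017. The cause was not tested.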
